A study of Macaca mulatta with 34 samples.

Results

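The genes described here are used as markers of the glutamatergic projection neurons of the deep cerebellar nuclei (DCN), through which the cerebellum sends its output. They are SLC17A6, the neurofilament genes NEFH, NEFM and NEFL, SNCG, MEIS1, MEIS2, LHX9 and TBR1. They were picked by symbol; the rule uses no measured value, but earlier results of these data were known when the set was drawn up. Each symbol matched 1 macaque gene identifier, so the set holds 9 of the 34847 identifiers in the count tables. Their counts were read in 22 DCN libraries of rhesus macaques that received their treatment by MRI-guided injection into these nuclei. Study 1 compared AAV.miS1 (6 libraries), a recombinant AAV2/1 vector that encodes an artificial microRNA, with vehicle (4 libraries). Study 2 compared intmiS1, miSCA7Stuffer and StufferOnly, which are AAV capsids with different cargo, with empty capsid (3 libraries each). The question of Study 1 was what made AAV.miS1 toxic, and that of Study 2 was how tissue responds to redesigned constructs. The labels give no age, sex or time between injection and tissue collection.

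Projection neurons of the DCN are large, fast-firing neurons that carry the output of the cerebellum to thalamus, red nucleus and brainstem. They release glutamate, which the transporter encoded by SLC17A6 (VGLUT2) loads into synaptic vesicles, and their wide, myelinated axons are filled with neurofilaments built from the light, medium and heavy subunits of NEFL, NEFM and NEFH. SNCG encodes gamma-synuclein, a protein abundant in the axons of large neurons, and MEIS1, MEIS2, LHX9 and TBR1 encode transcription factors used, mainly from work in mice, to tell apart rhombic lip derivatives and individual nuclei. Neurofilament and MEIS genes are also expressed by other neurons, so the set is not exclusive to 1 cell type. A lower level in bulk tissue may mean fewer cells or less RNA per cell, and these cannot be told apart here.

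Reads counted in genes numbered 2049685 to 4810852 per Study 1 library, apart from vehicle replicate 2 with 87741, and 20978241 to 39792653 per featureCounts library of Study 2. Replicates 1 and 2 of intmiS1, counted by STAR, held 5169866 and 4858179. ATXN1, the gene that the microRNA of AAV.miS1 and intmiS1 is aimed at, lay between 49.6 and 90.2 CPM (counts scaled to library size by TMM) in AAV.miS1 libraries and between 91.2 and 103.8 CPM in vehicle libraries (log2 fold change -0.62, SE 0.18, edgeR adjusted p = 0.0604). It was 28.5 to 50.5 CPM in intmiS1 libraries and 45.5 to 57.6 CPM in empty capsid libraries (log2 fold change -0.35, SE 0.29, adjusted p = 0.722). ATXN7, the gene that miSCA7 is aimed at, was 25.04 to 37.0 CPM in miSCA7Stuffer libraries and 32.9 to 36.7 CPM in empty capsid libraries (log2 fold change -0.16, SE 0.16, adjusted p = 0.553). The vector feature with the most reads gave 349 and 257 RPM (reads scaled to the library total) in miSCA7Stuffer replicates 2 and 3 and 1.64 RPM in replicate 1, against at most 0.351 RPM in empty capsid libraries. In Study 1 it gave 22.2 RPM in AAV.miS1 replicate 1, the lowest of the 6, and up to 548 RPM in replicate 2, against 0.337 to 11.3 RPM in vehicle libraries, where the 11.3 RPM of replicate 2 rest on 1 read. In Study 1 more than 15% of reads were unmapped in AAV.miS1 replicates 5 and 6 and in vehicle replicates 2, 3 and 4.

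The projection neuron genes were well expressed in the control libraries, apart from LHX9 and TBR1, but vehicle replicate 2 held few counts of any of them. It had 7 counts of SLC17A6, 5 of SNCG, 7 of MEIS1 and 5 of MEIS2. Of NEFH, NEFM and NEFL it had 24, 31 and 43 counts. In the 4 vehicle libraries the means were 121.1 ± 48.3 CPM (SD) for SLC17A6, 953 ± 387 CPM for NEFL and 80.8 ± 13.0 CPM for MEIS1. In the 3 empty capsid libraries they were 171 ± 16.7 CPM for SLC17A6, 1216 ± 236 CPM for NEFL and 55.7 ± 4.89 CPM for MEIS1. CPM is not scaled to gene length, so levels are not compared between genes.

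The libraries of AAV.miS1 and of miSCA7Stuffer differed widely among themselves. Of the 7 abundant genes, 7 lay under 25% of the vehicle mean in AAV.miS1 replicate 1, 5 in replicate 2 and 4 in replicate 4, and none did in replicates 3, 5 and 6. In miSCA7Stuffer replicates 2 and 3, 5 of the 7 lay under 25% of the empty capsid mean, and in replicate 1 none did. No StufferOnly or intmiS1 library had a member of the 7 under that level. Replicate 5 was the highest AAV.miS1 library for 9 of 9 genes, and replicate 1 was the highest miSCA7Stuffer library for 8 of 9.

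**Figure D1:**
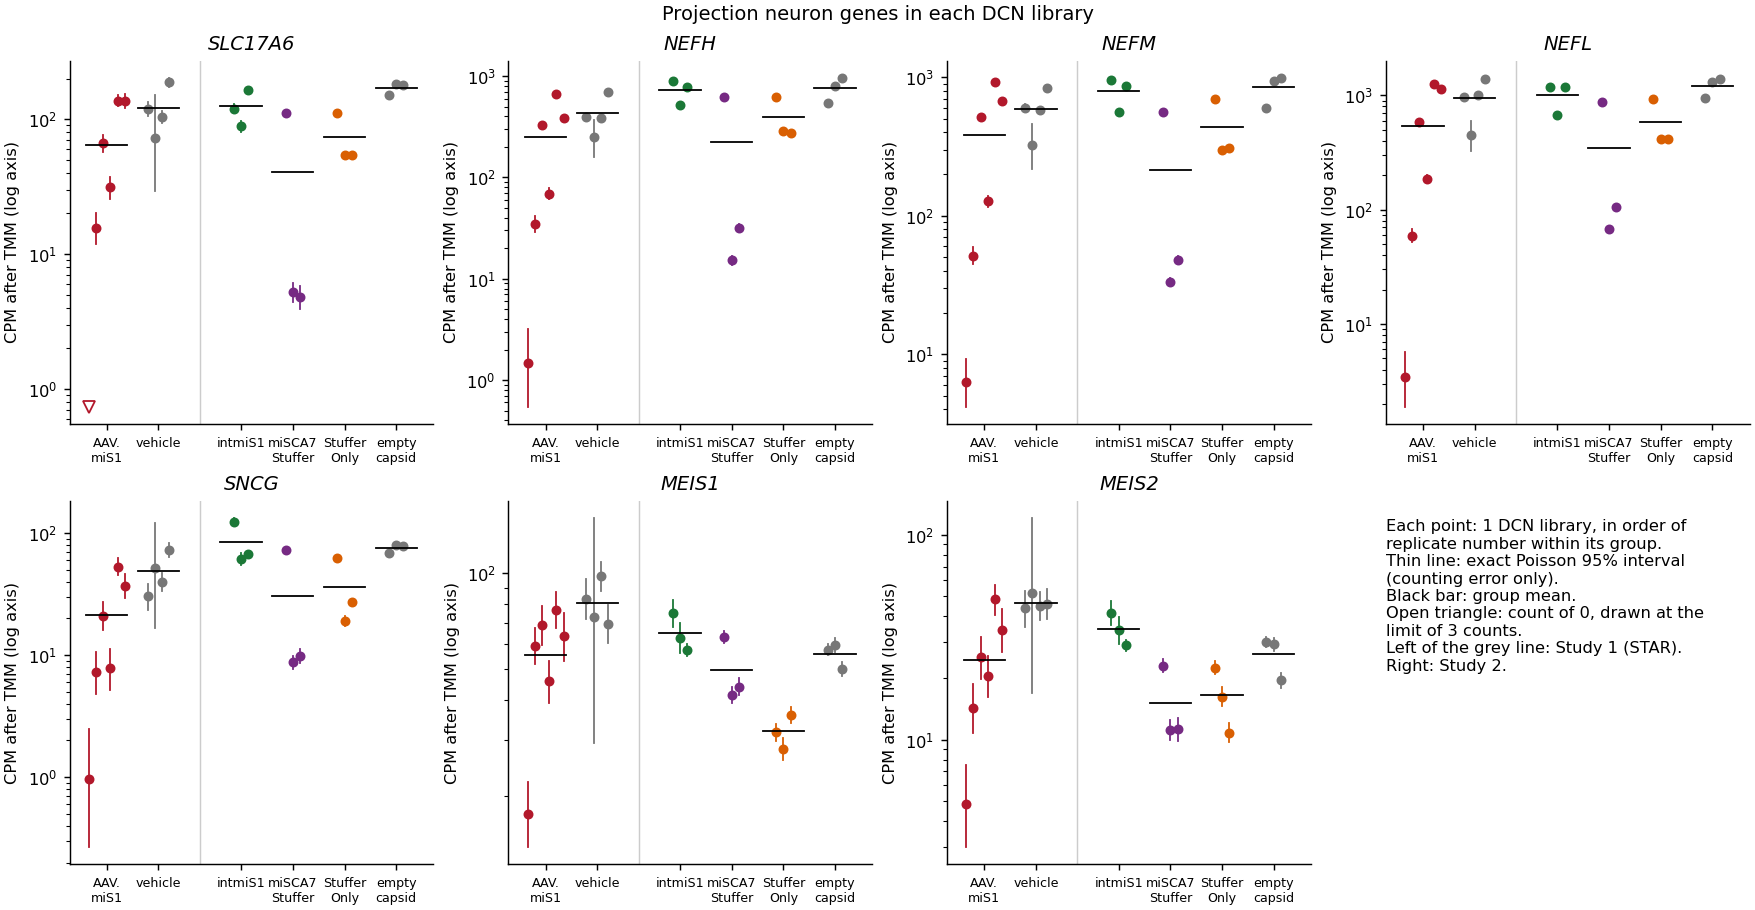
CPM after TMM (log axis) of the 7 abundant projection neuron genes in each DCN library, by group, with exact Poisson 95% intervals (thin lines) and group means (black bars). For most of the 7 genes the AAV.miS1 and miSCA7Stuffer groups hold libraries at or nearer the control level and others far below it. For most, the 3 StufferOnly libraries lie closer together. MEIS1 differs, at 74.6% and 79.0% of the empty capsid mean in miSCA7Stuffer replicates 2 and 3. For SLC17A6, NEFM and NEFL, miSCA7Stuffer replicate 1 lies below every empty capsid library. SLC17A6 had 0 counts in AAV.miS1 replicate 1 and is drawn there at the limit of 3 counts.

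Against vehicle, 0 of the 7 genes that could be tested passed in AAV.miS1 DCN (edgeR quasi-likelihood, adjusted p 0.24 to 0.674). None had an unadjusted p under 0.05, and DESeq2 called 0. In this comparison 7.5% of all 13383 genes tested passed, and 0.284% passed as lower. All 7 fold changes lay below 0, with a median of -0.84 on the log2 scale, beside 0.02 over all genes, of which 48.7% lay below 0. LHX9 and TBR1 did not pass the filter on low counts in Study 1.

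Against empty capsid, 1 of 9 genes, MEIS1, passed as lower in StufferOnly DCN, where 15.4% of 20882 genes passed and 3.81% passed as lower. All 9 fold changes lay below 0, with a median of -1.06 beside 0.02 over all genes, of which 48.6% lay below 0. In miSCA7Stuffer DCN 0 of 9 passed (adjusted p 0.228 to 0.85, 0 at an unadjusted p under 0.05, 0 by DESeq2), where 0.00479% of genes, 1 in number, passed. All 9 fold changes again lay below 0, with a median of -1.76 beside 0.07 over all genes, of which 45% lay below 0. Without miSCA7Stuffer replicate 1, the library with few vector reads, 6983 of 21539 genes passed, 3616 of them as lower, and 6 of the 9 genes passed as lower (SLC17A6, NEFH, NEFM, NEFL, SNCG and MEIS2). The StufferOnly and miSCA7Stuffer comparisons share the 3 empty capsid libraries, so their fold changes are not independent.

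In intmiS1 DCN 0 of 9 genes passed against empty capsid (adjusted p 0.722 to 0.994, 0 at an unadjusted p under 0.05, 0 by DESeq2), where 0% of 21501 genes passed. The median fold change was -0.07 beside 0.01 over all genes, and 5 of 9 lay below 0, as 49.5% of all genes did. Set against StufferOnly, 9 of 9 genes lay above 0 in intmiS1 DCN, with a median of 0.89 beside -0.06 over all genes, of which 53.7% lay below 0, and 1 of 9, MEIS1, passed as higher, where 11.9% of 21501 genes passed and 3.4% passed as higher. In miSCA7Stuffer set against StufferOnly 0 of 9 passed (adjusted p 0.319 to 0.948, 1 at an unadjusted p under 0.05, 0 by DESeq2), where 0% of genes passed.

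**Figure D2:**
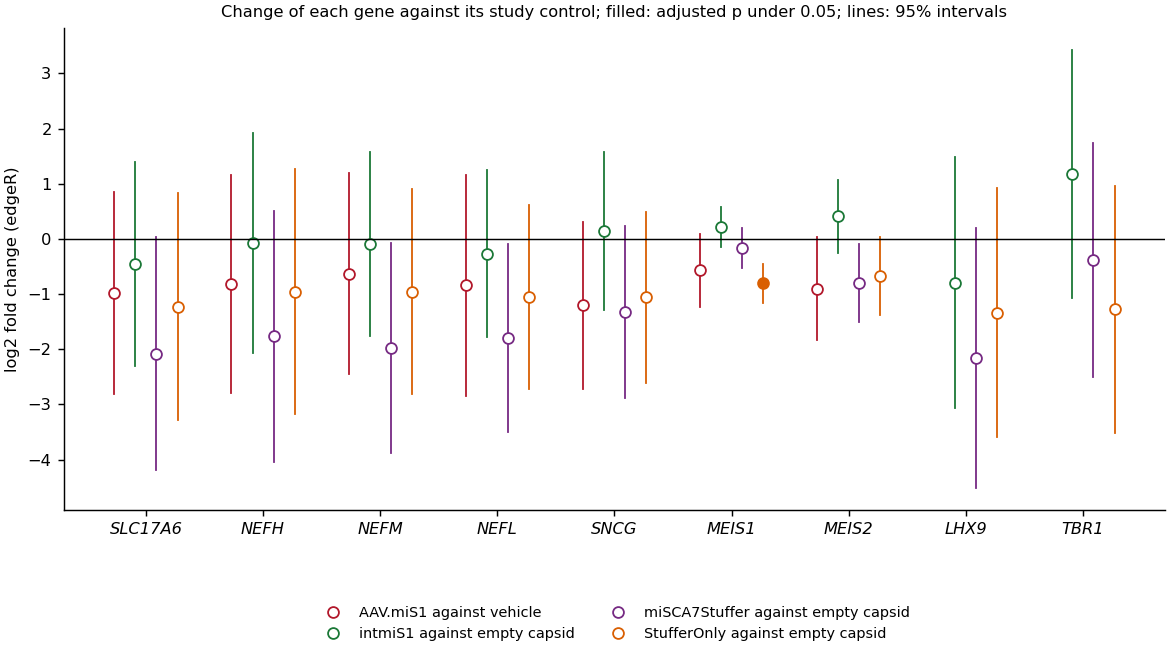
Log2 fold change of each gene against its study's control, with 95% intervals from the SE by the normal approximation as lines. The lines are narrower than the F test implies, so a line that leaves out 0 need not have an unadjusted p under 0.05. Filled points passed at an adjusted p of 0.05. The intervals of the neurofilament genes, SLC17A6 and SNCG are several log2 units wide, MEIS1 has the narrowest, and MEIS1 in StufferOnly is the only filled point.

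SLC17A6 had 0, 48.9 and 137.5 CPM as the lowest, median and highest of the AAV.miS1 libraries, against 119.9, 72.7, 104.3 and 187.3 CPM in the vehicle libraries. The count of 0, in AAV.miS1 replicate 1, allows up to 0.731 CPM, and the 72.7 CPM of vehicle replicate 2 rests on 7 counts. Of the AAV.miS1 libraries 4 lay below every vehicle library and the other two, replicates 5 and 6 at 137.5 and 136.5 CPM, lay within the vehicle range, so the groups overlapped (log2 fold change -0.98, SE 0.93, adjusted p = 0.499). SLC17A6 had 111.5, 5.20 and 4.80 CPM in the miSCA7Stuffer libraries, against 152.1, 181.7 and 180.3 CPM in the empty capsid libraries. All 3 lay below every empty capsid library, as 12.7% of genes did, but replicate 1 lay far above the other two and the fold change of -2.08 (SE 1.08) had an adjusted p of 0.271. Without replicate 1 the log2 fold change was -5.13 and passed. SLC17A6 had 111.7, 54.3 and 54.0 CPM in the StufferOnly libraries, all below the empty capsid libraries, as 22.2% of genes were (log2 fold change -1.23, SE 1.05, adjusted p = 0.442). In the intmiS1 libraries it had 119.8, 88.3 and 165.9 CPM, with 1 library inside the empty capsid range and 2 below it (log2 fold change -0.46, 95% interval -2.30 to 1.39).

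NEFL, the light subunit on which neurofilaments assemble, had 3.41, 384.5 and 1253 CPM as the lowest, median and highest of the AAV.miS1 libraries, against 968.7, 446.5, 1007 and 1388 CPM in the vehicle libraries. AAV.miS1 replicates 1, 2 and 4 lay below every vehicle library and replicates 3, 5 and 6 within their range (log2 fold change -0.84, SE 1.02, adjusted p = 0.601). Replicate 3, at 582.4 CPM, lay above vehicle replicate 2 alone, whose 446.5 CPM rest on 43 counts. In the miSCA7Stuffer libraries NEFL had 873.9, 67.9 and 105.7 CPM, and in the empty capsid libraries 948.5, 1307 and 1393 CPM. All miSCA7Stuffer libraries lay below the empty capsid libraries, as 12.7% of genes did (log2 fold change -1.80, SE 0.87, edgeR adjusted p = 0.246). Without miSCA7Stuffer replicate 1 the log2 fold change was -3.84 and passed. In the StufferOnly libraries NEFL had 920.0, 415.6 and 417.5 CPM. These too lay below the empty capsid libraries, as 22.2% of genes did (log2 fold change -1.06, SE 0.85, adjusted p = 0.415). In the intmiS1 libraries it had 1178, 667 and 1177 CPM, 2 of them within the empty capsid range (log2 fold change -0.27, 95% interval -1.78 to 1.24).

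NEFM, the medium subunit, had 6.34, 322.4 and 929.2 CPM as the lowest, median and highest of the AAV.miS1 libraries, against 603.8, 321.9, 577.9 and 841.4 CPM in the vehicle libraries. The highest AAV.miS1 library, replicate 5, lay above every vehicle library and 3 lay below them all (log2 fold change -0.63, SE 0.93, adjusted p = 0.674). Replicate 3, at 517.9 CPM, lay above vehicle replicate 2 alone, whose 321.9 CPM rest on 31 counts. NEFM had 559.8, 33.4 and 48.0 CPM in the miSCA7Stuffer libraries and 697.5, 295.7 and 310.8 CPM in the StufferOnly libraries, against 602.5, 943.4 and 982.0 CPM in the empty capsid libraries. The miSCA7Stuffer libraries all lay below the empty capsid range, as 12.7% of genes did (log2 fold change -1.98, SE 0.97, edgeR adjusted p = 0.252). Without miSCA7Stuffer replicate 1 the log2 fold change was -4.40 and passed. StufferOnly replicate 1 lay inside the empty capsid range (log2 fold change -0.96, SE 0.94, adjusted p = 0.509).

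NEFH, the heavy subunit whose long tail spaces the filaments of wide axons, showed the widest range among the AAV.miS1 libraries, a 457-fold span between 1.46 CPM in replicate 1 and 669.2 CPM in replicate 5, with a median of 197.8 CPM. The vehicle libraries had 390.4, 249.2, 382.2 and 698.2 CPM, a 2.80-fold span. The 1.46 CPM rest on 6 counts, and SLC17A6, at 0 counts in the same library, has no span to set beside it. In the miSCA7Stuffer libraries NEFH had 628.3, 15.2 and 31.9 CPM, a 41.4-fold span, against 545.1, 792.3 and 955.8 CPM in the empty capsid libraries. Replicate 1 lay inside the empty capsid range (log2 fold change -1.76, SE 1.16, adjusted p = 0.373), and without it the log2 fold change was -5.06 and passed. In the StufferOnly libraries NEFH had 623.1, 289.3 and 272.1 CPM (log2 fold change -0.95, SE 1.14, adjusted p = 0.586). In the intmiS1 libraries NEFM and NEFH lay between 557.1 and 954.4 CPM and between 517.2 and 894.3 CPM, and their fold changes against empty capsid were -0.09 (95% interval -1.76 to 1.57) and -0.07 (-2.06 to 1.93).

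SNCG had 0.975, 14.4 and 53.1 CPM as the lowest, median and highest of the AAV.miS1 libraries, against 30.3, 51.9, 39.7 and 73.3 CPM in the vehicle libraries. Of the AAV.miS1 libraries 4 lay below every vehicle library, and its fold change of -1.21 (SE 0.77, adjusted p = 0.318) was the farthest from 0 among the 7 genes. It had 72.4, 8.74 and 9.87 CPM in the miSCA7Stuffer libraries and 63.0, 19.1 and 27.0 CPM in the StufferOnly libraries, against 69.0, 80.1 and 78.3 CPM in the empty capsid libraries. The StufferOnly libraries all lay below the empty capsid libraries, as 22.2% of genes did (log2 fold change -1.06, SE 0.79, edgeR adjusted p = 0.38). The miSCA7Stuffer replicate 1 lay inside the empty capsid range (log2 fold change -1.32, SE 0.80, adjusted p = 0.335). Without that library the log2 fold change was -3.06 and passed. In the intmiS1 libraries SNCG had 124.1, 61.2 and 67.3 CPM, 1 above and 2 below every empty capsid library (log2 fold change 0.15, 95% interval -1.28 to 1.58).

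MEIS1, a homeodomain factor that binds DNA together with PBX proteins, was the gene that passed in StufferOnly DCN. It had 31.7, 28.1 and 35.8 CPM in the StufferOnly libraries, against 57.6, 59.4 and 50.2 CPM in the empty capsid libraries. The StufferOnly libraries all lay below the empty capsid libraries, as 22.2% of genes did. MEIS1 fell by 0.81 on the log2 scale (SE 0.18, edgeR adjusted p = 0.0258) and stood at 57.1% of the empty capsid mean. It passed with DESeq2 (adjusted p = 0.00082) and not when any 1 of the 6 libraries was left out, although the fold change then still lay between -0.90 and -0.73. In the intmiS1 libraries MEIS1 had 74.9, 62.8 and 57.5 CPM, all above the StufferOnly libraries, as 15.5% of genes were. It was higher by 1.03 (SE 0.19, adjusted p = 0.0129) than in StufferOnly, and its log2 fold change against empty capsid was 0.22 (95% interval -0.14 to 0.58). The call against StufferOnly was lost without intmiS1 replicate 1, without intmiS1 replicate 2 or without StufferOnly replicate 2. In those runs 132, 232 and 445 of all genes passed. It was also lost with the featureCounts libraries alone, which leave 1 intmiS1 library (log2 fold change 0.86).

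In the miSCA7Stuffer libraries MEIS1 had 63.2, 41.6 and 44.1 CPM, with 1 library above and 2 below every empty capsid library (log2 fold change -0.17, SE 0.18, adjusted p = 0.59). The low libraries, replicates 2 and 3, thus stood at 74.6% and 79.0% of the empty capsid mean, where SLC17A6 in them stood at 3.04% and 2.80%. All 3 miSCA7Stuffer libraries lay above the 3 StufferOnly libraries for MEIS1, as 6.24% of genes did (log2 fold change 0.64, SE 0.18, adjusted p = 0.319). MEIS1 had 17.6, 61.4 and 76.9 CPM as the lowest, median and highest of the AAV.miS1 libraries, against 83.1, 72.7, 98.2 and 69.3 CPM in the vehicle libraries. Of the AAV.miS1 libraries 5 lay below every vehicle library and 1, replicate 5, within their range (log2 fold change -0.57, SE 0.34, adjusted p = 0.284).

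MEIS2, its close relative, had 4.88, 22.9 and 48.3 CPM as the lowest, median and highest of the AAV.miS1 libraries, against 43.7, 51.9, 45.0 and 46.1 CPM in the vehicle libraries. Of the 6, 5 lay below the narrow vehicle range (log2 fold change -0.91, SE 0.48, adjusted p = 0.24, the lowest of the 7). MEIS2 had 22.9, 11.2 and 11.2 CPM in the miSCA7Stuffer libraries and 22.5, 16.2 and 10.8 CPM in the StufferOnly libraries, against 30.0, 29.2 and 19.5 CPM in the empty capsid libraries. In each vector group 1 library lay inside the empty capsid range (log2 fold changes -0.79, SE 0.36, adjusted p = 0.228 in miSCA7Stuffer, or -1.26 and adjusted p = 0.0148 without replicate 1, and -0.67, SE 0.36, adjusted p = 0.234 in StufferOnly). In the intmiS1 libraries MEIS2 had 41.6, 34.2 and 28.8 CPM. All lay above the StufferOnly libraries, as 15.5% of genes did (log2 fold change 1.08, SE 0.34, edgeR adjusted p = 0.066). MEIS2 passed that comparison with DESeq2 (adjusted p = 0.0154) and with the replicate number as a block (edgeR adjusted p = 0.0132). MEIS2 was the other gene at an unadjusted p under 0.05 there, making 2 with MEIS1.

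LHX9 and TBR1 rested on few counts. LHX9, a LIM homeodomain factor, had 0 to 3 counts in AAV.miS1 libraries and 0 to 6 counts in vehicle libraries. In Study 2 it had 20, 4 and 0 counts in the miSCA7Stuffer libraries and 31, 0 and 14 counts in the StufferOnly libraries, against 53, 17 and 46 counts in the empty capsid libraries. All 3 miSCA7Stuffer libraries lay below the empty capsid libraries in CPM, as 12.7% of genes did (log2 fold change -2.15, SE 1.20, edgeR adjusted p = 0.303). They had 0.611 and 0.142 CPM, with 0 counts in replicate 3, against 1.38, 0.64 and 1.53 CPM in empty capsid libraries. TBR1, a T-box factor that in mice marks the medial nucleus, had 0 to 7 counts in AAV.miS1 libraries and 0 to 3 counts in vehicle libraries. It had at most 22 counts in any Study 2 library, and 3 counts or fewer in 3 of them, miSCA7Stuffer replicate 2, StufferOnly replicate 1 and empty capsid replicate 3. The intmiS1 libraries held 5, 5 and 11 counts of LHX9 and 6 counts each of TBR1. TBR1 stood at 1.14, 1.18 and 0.189 CPM in intmiS1 and at 0.0299, 0.186 and 0.187 CPM in StufferOnly, without overlap, as 15.5% of genes were. Its log2 fold change of 2.44 in that comparison (SE 1.23, 95% interval 0.02 to 4.86, adjusted p = 0.213) was 0.52 with the featureCounts libraries alone. The approximate interval leaves out 0, but the unadjusted p of the edgeR F test was 0.0738. Neither gene passed in any comparison.

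Low and high values fell in the same libraries for most of the genes. Across the 10 Study 1 libraries the log2 CPM of the 3 neurofilament genes correlated with each other at r of 0.994 to 0.996, and across the 10 featureCounts libraries at 0.992 to 0.997. SLC17A6 correlated with them at 0.977 to 0.993. The libraries behind these correlations share their scaling and the differences between groups. MEIS1 followed the others in Study 1 (r 0.882 to 0.927) but less so in the featureCounts libraries, with r of 0.305 with NEFH, 0.352 with SLC17A6 and 0.575 with MEIS2. Named genes whose log2 CPM averaged 3 or more in both sets numbered 10097, and those most like SLC17A6 by the lower of the 2 correlations, over 10 libraries each, were INA, CPLX1, C1QL3, SYT2 and ELAVL2 (0.982 to 0.992). Those most like NEFH were CPLX1, IGLON5, INA, ASAH2 and PHF24 (0.980 to 0.988). INA encodes the neurofilament-associated protein alpha-internexin, CPLX1 the vesicle release protein complexin 1 and SYT2 a fast synaptic calcium sensor.

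The ratio of 2 genes within a library does not depend on how libraries were scaled. NEFH counts were 0.719, 0.223 and 0.302 of NEFL counts in miSCA7Stuffer replicates 1, 2 and 3, against 0.575, 0.606 and 0.686 in the empty capsid libraries. The low ratios, with exact 95% intervals of 0.201 to 0.248 and 0.277 to 0.329, lay below the 0.565 that bounds the lowest empty capsid ratio, and replicate 1 lay above all 3. The mean log2 difference of -0.77 had an exact permutation p of 0.4 (adjusted p = 0.514), where 3 against 3 cannot go below 0.1. NEFM counts were 0.641, 0.492 and 0.454 of NEFL counts in the same libraries, against 0.635, 0.722 and 0.705 in empty capsid libraries (difference -0.39, exact permutation p = 0.2). In the StufferOnly libraries NEFH was 0.677, 0.696 and 0.652 of NEFL counts, with no library below the empty capsid range (difference 0.12, exact permutation p = 0.3). The mean log2 NEFH to NEFL ratio in AAV.miS1 libraries differed from vehicle by 0.03 (exact permutation p = 0.905). The log2 ratio of MEIS2 to MEIS1 averaged -1.77 ± 0.27 in miSCA7Stuffer and -1.11 ± 0.22 in empty capsid libraries (SD, n = 3 each), with 3 of 3 below every empty capsid library (exact permutation p = 0.1, the smallest possible). It averaged -1.33 ± 0.54 in AAV.miS1 (n = 6) and -0.77 ± 0.31 in vehicle libraries (n = 4; exact permutation p = 0.1). Over the 9 tests of ratios the adjusted p ran from 0.36 to 0.905, so none passed.

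**Figure D3:**
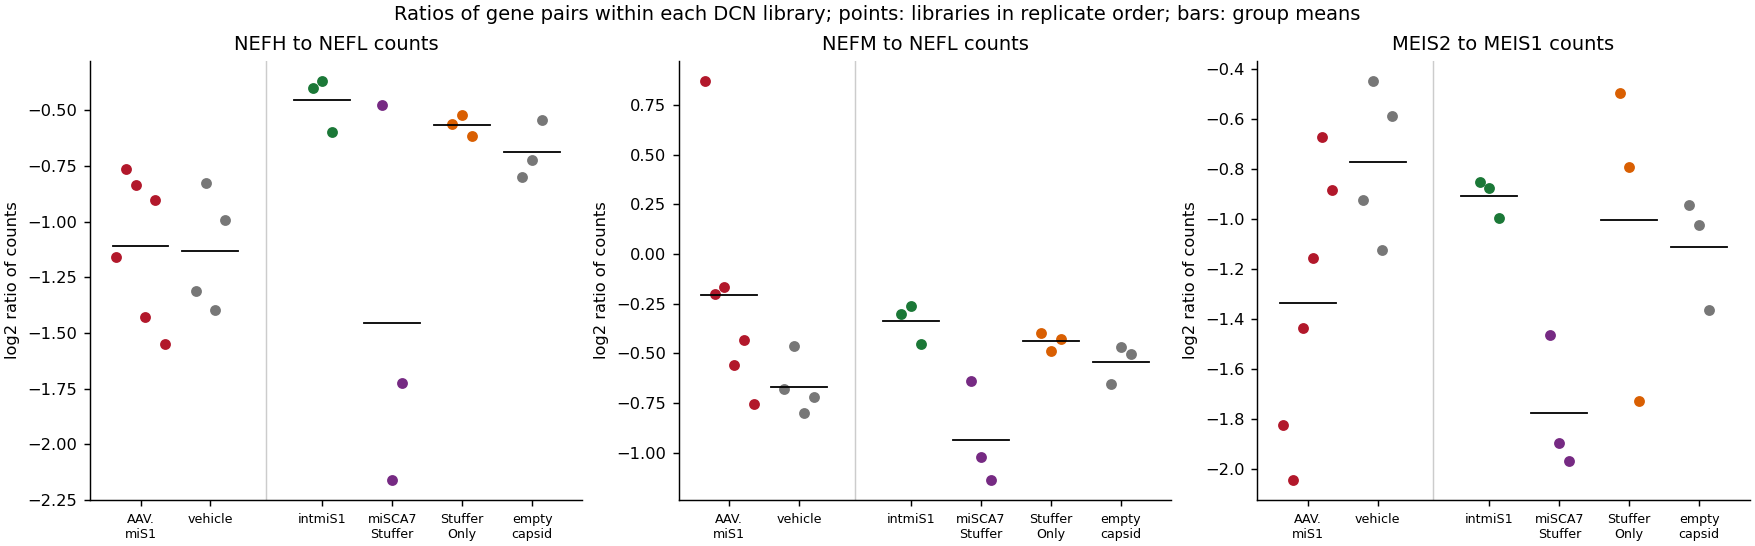
Log2 ratio of the counts of 2 genes within each DCN library (y axis), by group, with group means as bars. In the NEFH to NEFL panel miSCA7Stuffer replicates 2 and 3 lie below all other libraries while replicate 1 lies above the empty capsid libraries; in the NEFM to NEFL panel AAV.miS1 replicate 1 stands alone at the top, on 26 NEFM and 14 NEFL counts.

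Other genes of glutamate supply and of wide, fast axons were read beside the set, from lists chosen by function. Of 18 tested genes of the axonal cytoskeleton, 16 lay below 0 in AAV.miS1 DCN, 16 in miSCA7Stuffer and 16 in StufferOnly. The exception that passed was PRPH, which encodes peripherin, an intermediate filament of peripheral and injured neurons. It rose to 83.1 ± 49.1 CPM in AAV.miS1 libraries, against 5.32 ± 4.61 CPM in vehicle libraries (log2 fold change 3.62, SE 0.75, edgeR adjusted p = 0.0275; 7.22% of all genes passed as higher), and 5 of 6 AAV.miS1 libraries lay above every vehicle library. The PRPH call in AAV.miS1 was lost without vehicle replicate 3, where 0 of 13676 genes passed. Without any other vehicle library, or without AAV.miS1 replicate 4, at most 3 genes passed. PRPH averaged 117 ± 121 CPM in miSCA7Stuffer and 57.5 ± 34.5 CPM in StufferOnly, against 6.84 ± 1.33 CPM in empty capsid libraries. It did not pass in either (edgeR adjusted p = 0.134 and 0.0738). The other gene of that list with the smallest p was ANK3, the scaffold of the axon initial segment, at 604 ± 302 CPM in AAV.miS1 and 1110 ± 144 CPM in vehicle libraries (adjusted p = 0.168). ANK3 was higher in intmiS1 than in StufferOnly libraries (log2 fold change 0.98, SE 0.25, adjusted p = 0.0319). That call, and those of MEIS3, GLS2, BCL11B, ELAVL3 and DNER in the same comparison, were lost with the featureCounts libraries alone, where 0 genes of 23447 passed.

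Of 14 tested genes of fast-firing neurons, among them channels and release proteins, 13 lay below 0 in AAV.miS1 DCN (median -1.14), 13 in miSCA7Stuffer (median -1.24) and 14 in StufferOnly (median -0.90), and none passed by edgeR. ESRRG, a nuclear receptor, had the smallest p of the list in StufferOnly, with 53.4 ± 20.9 CPM in StufferOnly and 100.4 ± 3.90 CPM in empty capsid libraries (adjusted p = 0.167). In glutamate supply 1 of 8 genes passed in StufferOnly, as 15.4% of all genes did, SLC1A1, the neuronal glutamate transporter EAAT3, at 31.7 ± 6.54 CPM in StufferOnly and 54.0 ± 5.55 CPM in empty capsid libraries (log2 fold change -0.77, SE 0.19, adjusted p = 0.0306). Of 7 tested PBX partners and relatives of the MEIS proteins, 4 lay below 0 in StufferOnly (median -0.115). Of these 7, 1 passed as higher, as 11.6% of all genes did. This was PBX2 (48.9 ± 3.99 CPM in StufferOnly and 35.8 ± 1.00 CPM in empty capsid, log2 fold change 0.45, SE 0.13, adjusted p = 0.0452). MEIS3, next by p, had a log2 fold change of -0.68 (edgeR adjusted p = 0.11). In the same 6 libraries the fold change of MEIS1 was -0.81. MEIS3 was higher in intmiS1 than in StufferOnly libraries (15.8 ± 6.64 CPM in intmiS1 and 7.33 ± 0.74 CPM in StufferOnly, adjusted p = 0.049). GLS2, a glutaminase, was lower in that comparison (19.6 ± 4.0 CPM in intmiS1 and 30.9 ± 2.55 CPM in StufferOnly, adjusted p = 0.0416).

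Of 13 rhombic lip factors listed, 6 could be tested in AAV.miS1. Of these, 4 lay below 0 (median -0.91) and 1 passed, as lower. This was BARHL1, a granule and nuclear lineage factor (2.16 ± 1.28 CPM in AAV.miS1 and 11.7 ± 6.54 CPM in vehicle, log2 fold change -2.46, SE 0.61, adjusted p = 0.0377). BCL11B was higher there without passing (log2 fold change 2.43, SE 0.77, edgeR adjusted p = 0.0753). In StufferOnly 8 could be tested and 5 lay below 0 (median -0.51). EOMES and BCL11B passed there as higher. EOMES rose to 5.51 ± 4.73 CPM against 0.324 ± 0.231 CPM in empty capsid libraries (adjusted p = 0.0335). BCL11B rose to 5.26 ± 3.45 CPM against 1.02 ± 0.25 CPM in empty capsid libraries (adjusted p = 0.0357). BCL11B was lower in intmiS1 than in StufferOnly libraries, at 1.03 ± 0.56 CPM in intmiS1 and 5.26 ± 3.45 CPM in StufferOnly (adjusted p = 0.0446). EOMES and BCL11B are also transcription factors of T and NK cells. The summed lymphocyte list was 131.2 to 621.2 CPM in StufferOnly libraries and 9.82 to 10.6 CPM in empty capsid libraries, 8 of its 10 genes passed as higher, and its part in these 2 results was not tested. Without empty capsid replicate 1, 0 of 21600 genes passed in StufferOnly, so the calls of SLC1A1, PBX2, EOMES, BCL11B and DNER there were lost, and without empty capsid replicate 2, 1 gene passed. Of the general neuron genes CAMK2B, a kinase subunit of synapses, passed as lower in AAV.miS1 (73.0 ± 22.9 CPM in AAV.miS1 and 144.8 ± 15.8 CPM in vehicle, adjusted p = 0.0358), and ELAVL3, a neuronal RNA-binding protein, as higher in intmiS1 than in StufferOnly (171.2 ± 16.0 CPM in intmiS1 and 103.0 ± 13.7 CPM in StufferOnly, adjusted p = 0.0272). The lower calls in AAV.miS1, BARHL1 and CAMK2B here and CALB1 and SLC1A6 of Purkinje cells, were among 38 of all genes. With the unmapped share as a covariate 1 gene passed as lower, and 0 did without any 1 vehicle library or without AAV.miS1 replicate 4.

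Markers of other cell types moved in the same libraries. The list of 15 general neuron genes with an identifier had medians of 4.72%, 53.3% and 21.6% of the vehicle mean in AAV.miS1 replicates 1, 2 and 4. The projection neuron medians there were 1.08%, 12.9% and 21.6%. In replicates 3, 5 and 6 the general neuron median was 50.9%, 95.8% and 73.2%, and the projection neuron median 61.1%, 114% and 90.6%. The inhibitory neuron median was 1.34%, 19.7% and 30.7% in AAV.miS1 replicates 1, 2 and 4. In replicates 3, 5 and 6 it was 64.8%, 110% and 88.1%. In miSCA7Stuffer replicates 2 and 3 the general neuron median was 26.2% in each, the inhibitory neuron median 30.0% and 34.8%, and the projection neuron median 11.5% and 8.69% of the empty capsid mean. In StufferOnly replicates 1, 2 and 3 the projection neuron median was 78.3%, 35.1% and 36.8%, beside 76.7%, 55.4% and 39.4% for general neuron genes. The inhibitory neuron median in these libraries was 88.1%, 35% and 51.3%. The projection neuron medians run over 7 genes in AAV.miS1 and over 9 genes in Study 2, LHX9 and TBR1 among them. The 78.3% and 36.8% in StufferOnly are the values of LHX9 itself, on 31 and 14 counts. No test was made of a difference between these lists.

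Granule cell markers, which belong to the cerebellar cortex around the nuclei, varied between libraries of 1 group. GABRA6, which marks granule cells, was 86.2 CPM in miSCA7Stuffer replicate 1, 22.7 and 4.43 in replicates 2 and 3, and 0.301 to 1.95 CPM in empty capsid libraries. In Study 1 it was 42.7 CPM in AAV.miS1 replicate 2 and 0.732 to 3.77 in the other 5, and 52.8, 31.2, 89.2 and 1.66 CPM in the vehicle libraries. Of 10 granule markers, 10 lay below 0 in AAV.miS1 (median -1.95) and none did in miSCA7Stuffer (median 1.78). Their summed level was 121.9 to 1207 CPM in AAV.miS1 and 239.4 to 1687 CPM in vehicle libraries, and 133.4 to 1596 CPM in miSCA7Stuffer and 151.9 to 194.1 CPM in empty capsid libraries, with no marker at 0. Of 10 genes of microglia and macrophages, 7 passed as higher in AAV.miS1, where 7.22% of all genes did, and 8 in StufferOnly, where 11.6% did. In miSCA7Stuffer 0 passed, where 1 gene of 20882 did. Set against StufferOnly, 8 passed as lower in intmiS1, where 8.46% of all genes did. Their summed level was 1459 to 31150 CPM in AAV.miS1 and 674.9 to 1911 CPM in vehicle libraries, and 604 to 6502 CPM in miSCA7Stuffer, 6248 to 10690 CPM in StufferOnly and 673.7 to 713.4 CPM in empty capsid libraries, with MSR1 at 0 in vehicle replicate 2. They had a median of 2570% of the vehicle mean in AAV.miS1 replicate 1 and 1570% in replicate 4, but 148% in replicate 5, and 610% and 571% of the empty capsid mean in miSCA7Stuffer replicates 2 and 3 and 93.1% in replicate 1. StufferOnly replicates 1, 2 and 3, where the projection neuron median was 78.3%, 35.1% and 36.8%, had microglia and macrophage medians of 794%, 1230% and 989%, and the part of either cell type in these results was not tested. Of Purkinje cell genes CALB1 and SLC1A6 passed as lower in AAV.miS1 (log2 fold changes -2.11 and -2.38, adjusted p = 0.0467 and 0.0399) and DNER in StufferOnly (-0.75, adjusted p = 0.0181), and DNER as higher in intmiS1 than in StufferOnly (0.65, adjusted p = 0.0137). Of lymphocyte genes 5 of 7 passed as higher in AAV.miS1 and 1 of 10 as lower in intmiS1 than in StufferOnly. Oligodendrocyte genes had medians of 50.3% to 95.5% in AAV.miS1 and 46.5% to 56.2% in StufferOnly. Of 8 tested, 5 passed as lower in StufferOnly and 4 as higher in intmiS1 than in StufferOnly. Of 5 endothelial genes 2 passed as higher in StufferOnly, and 1 as higher and 1 as lower in intmiS1 against StufferOnly. Without vehicle replicate 3 the AAV.miS1 calls of all these lists were lost, since 0 of 13676 genes passed. Without empty capsid replicate 1 the StufferOnly calls against empty capsid were lost, since 0 of 21600 genes passed.

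**Figure D4:**
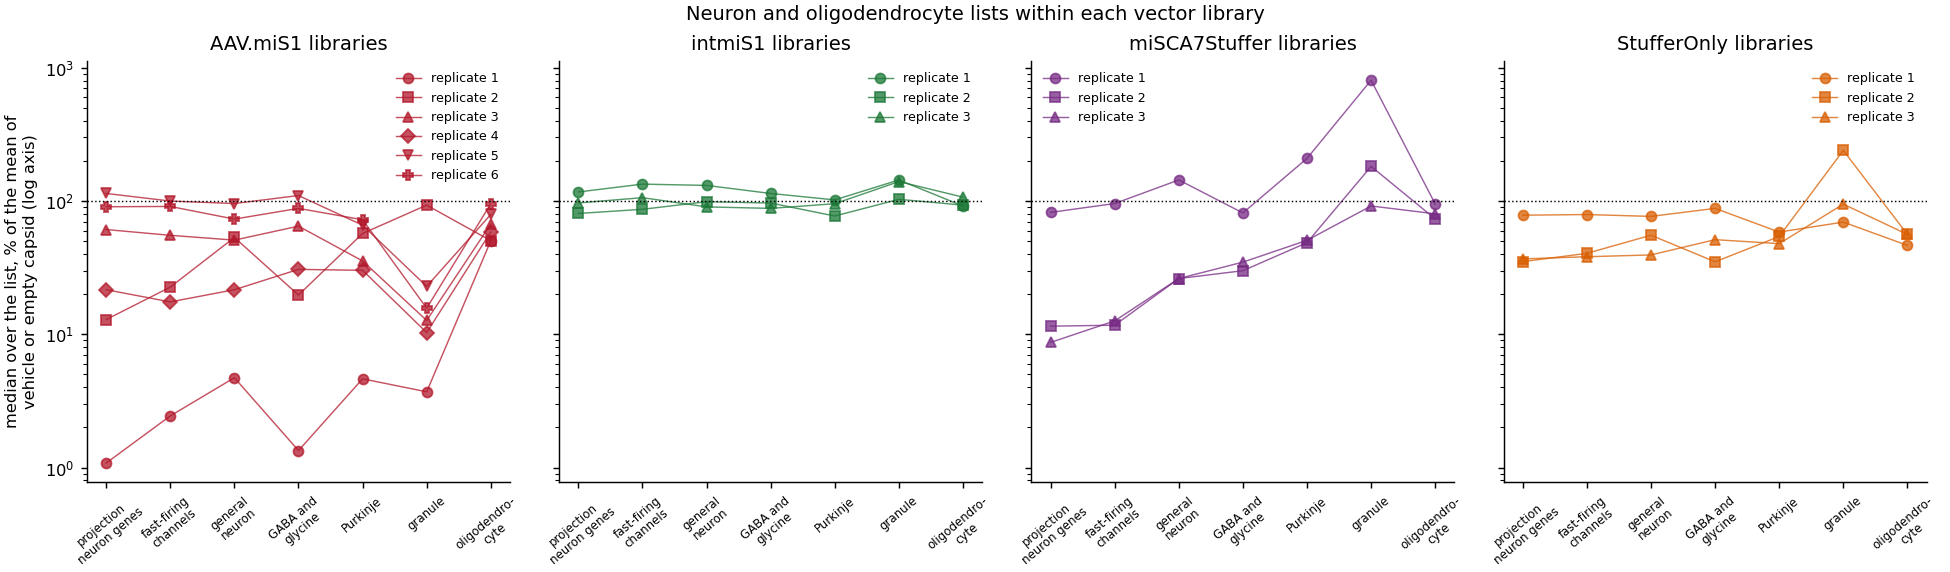
Median of each gene list in each vector library, on a log axis. Values are percentages of the vehicle mean for AAV.miS1 and of the empty capsid mean for the other groups. The dotted line marks 100%. Projection neuron medians run over 7 genes in AAV.miS1 and over 9 in the other groups. AAV.miS1 replicate 1 lies near 1% for projection neuron and inhibitory genes while its oligodendrocyte median is 50.3%, and miSCA7Stuffer replicates 2 and 3 are lowest for projection neuron and fast-firing genes.

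Study 1 libraries were also compared by their share of unmapped reads. Among libraries with more than 15% of reads unmapped, 2 AAV.miS1 and 3 vehicle, the fold changes were 0.01 for SLC17A6, 0.17 for NEFH, 0.39 for NEFM and 0.28 for NEFL (adjusted p 0.872 to 1), and those of SNCG, MEIS1 and MEIS2 were -0.30, -0.23 and -0.15. Among the others, a set added after the data were seen, they lay between -2.23 for NEFL and -0.81 for MEIS1, but with 4 AAV.miS1 and 1 vehicle library the treatment cannot be told apart from that 1 library. With the share coded as above 15% or not and used as a covariate, SLC17A6 had -0.90 (edgeR adjusted p = 0.586) and NEFL -0.83 (adjusted p = 0.66). AAV.miS1 replicates 5 and 6, the 2 above 15% unmapped, were also the 2 AAV.miS1 libraries with the most SLC17A6. Leaving out any 1 of the 10 libraries gave 0 calls among the 7 genes. Without 1 vehicle library, or without AAV.miS1 replicate 4, at most 3 of all genes passed, so those runs could hardly call any of the 7. In the other runs 505 to 2300 of all genes passed.

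The effects of different vectors, each against the control of its own study, were compared with each other in 1 fit. AAV.miS1 minus StufferOnly gave differences of -0.20 to 0.36 for the 7 genes, with adjusted p of 1 throughout and SE of 0.44 to 1.59, and 2 of 7 lay below 0, as 41.2% of all genes did. AAV.miS1 minus intmiS1 gave differences below 0 for 7 of 7 genes, and for 47.9% of all genes, from -1.41 for SNCG and -1.37 for MEIS2 to -0.58 for SLC17A6 and NEFM, and none passed (adjusted p 0.292 to 0.901; 0% of 16537 genes passed in either comparison, 464 and 2865 at an unadjusted p under 0.05, and 17 and 400 by DESeq2). The 95% intervals, by the normal approximation, ran from -2.66 to -0.08 for MEIS2, from -1.71 to -0.002 for MEIS1 and from -3.91 to 2.32 for NEFH. These intervals are narrower than the edgeR F test implies. That test gave an unadjusted p of 0.0516 for MEIS2 and 0.0643 for MEIS1.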

How the data were processed

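RNA-seq of total RNA gave 22 libraries of rhesus macaque deep cerebellar nuclei (DCN). The deposited files hold gene counts that the authors made with STAR 2.6.0c, per the submitters' processing notes (Study 1 and 2 intmiS1 libraries), or with featureCounts, per the file headers (the other 10 libraries). No source used here names the genome build. The reverse-strand column was used for Study 1 and the unstranded column for the 2 STAR intmiS1 libraries. Counts naming no gene (63.6% to 72.1% of reads in the STAR libraries) were left out.

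Low counts were filtered with filterByExpr (min.count 10, min.total.count 15), libraries scaled by TMM, and groups compared with edgeR 4.0.16 quasi-likelihood tests in R 4.3.3, with Benjamini-Hochberg adjustment over all genes tested and a threshold of 0.05. The 10 Study 1 libraries, the 9 featureCounts libraries of miSCA7Stuffer, StufferOnly and empty capsid, all 12 Study 2 libraries (for intmiS1) and all 22 libraries (for differences between studies) had a fit each. Standard errors (SE) came from the F statistic, and 95% intervals of fold changes from the SE by the normal approximation. These intervals are narrower than the F test implies. CPM are after TMM, within Study 1 or within all 12 Study 2 libraries. Ratios of counts used a pseudocount of 0.5 and two-sided exact permutation tests. Intervals on single libraries are exact 95% intervals, and 0 counts allow up to 3. Both limits reflect counting error alone. Alternatives were DESeq2 1.42.0, RLE scaling, no filter, other count columns, the replicate number as a block, the unmapped share (above 15% or not) and leaving out each library. The edgeR fit with its main settings was tested on simulated counts for part of the comparisons. Figures used Python 3.11.15 and matplotlib 3.10.9.

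Each library is a different animal by the identifiers in the labels, so p-values measure spread between libraries of different animals. That spread also holds differences in sequencing depth and, within intmiS1, in counting program. Same-numbered miSCA7Stuffer and StufferOnly libraries deviated together (correlations 0.44, 0.18 and 0.25, each above the 0.1 set for pairing by number), but miSCA7Stuffer replicate 2 correlated at 0.24 with StufferOnly replicate 3, and the labels give no shared litter, batch or day. Study 1 replicate numbers only name the libraries, since the labels number them across both groups and not within one. The 9 genes, the companion lists and the tests were chosen with earlier results of these data known. Text names all 9 genes, the genes of companion lists that passed, and, of the 2 with the smallest p in each list, those where the list is described; passing markers of glia, endothelial and immune cells are given as counts. The values of 1 companion gene are not reported here.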

Additional observations from a re-analysis of the deposited data

Results flagged for a closer look

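The NEFM to NEFL log2 ratio was 0.87 in AAV.miS1 replicate 1, farther from the other AAV.miS1 libraries than a Dixon test at 95% allows. The ratio rests on 26 NEFM and 14 NEFL counts, or 1.86 (exact 95% interval 0.935 to 3.85). About 1 in 20 of the 24 groups of values tested would be set apart by chance.

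The effect of intmiS1 on MEIS1 differed from that of StufferOnly by 1.029 on the log2 scale (edgeR adjusted p = 0.0129, higher in 3 of 3 intmiS1 libraries than in any StufferOnly library). Both effects are against the same 3 empty capsid libraries, so their difference is the direct comparison of the groups. The call was lost without intmiS1 replicate 1, without intmiS1 replicate 2 or without StufferOnly replicate 2, where 132, 232 and 445 of all genes passed. The intmiS1 group mixes 2 STAR tables with 1 featureCounts table. The part of the counting program was not tested beyond the fit on featureCounts libraries alone. That fit holds 1 intmiS1 library and gave 0.86, and the call was lost there too.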

How the results depend on the processing

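With DESeq2 in place of edgeR the numbers of genes called were 1786 (AAV.miS1 against vehicle), 5329 (StufferOnly against empty capsid), 2339 (miSCA7Stuffer against empty capsid), 476 (miSCA7Stuffer against StufferOnly), 52 (intmiS1 against empty capsid), 4244 (intmiS1 against StufferOnly), 17 (AAV.miS1 effect minus StufferOnly effect) and 400 (AAV.miS1 effect minus intmiS1 effect), against 1004, 3219, 1, 0, 0, 2552, 0 and 0 with edgeR. In Study 1 an unmapped share above 15%, as a yes-or-no covariate, gave 148 calls, and the libraries above 15% unmapped gave 123. Without the filter on low counts 1 gene was called in miSCA7Stuffer against StufferOnly, and RLE scaling and the unstranded column each gave 1 in the AAV.miS1 effect minus the intmiS1 effect. With only featureCounts libraries intmiS1 against StufferOnly gave 0 calls and 0 among the projection neuron genes, where DESeq2 and the replicate block each gave 2. The causes were not tested.

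Signs turned among projection neuron genes that did not pass: SLC17A6 0.01, NEFH 0.17, NEFM 0.39 and NEFL 0.28 in Study 1 libraries above 15% unmapped; NEFH 0.07 with the reverse column; NEFH 0.03, NEFM 0.03, SNCG -0.17 and TBR1 -0.75 for intmiS1 against empty capsid, and LHX9 -0.42 against StufferOnly, with featureCounts libraries alone; and, with the replicate block, SNCG -0.08 for intmiS1 against empty capsid and 0.24 for the AAV.miS1 effect minus the StufferOnly effect. 

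Leaving out 1 library at a time, genes called ran from 0 to 2300 (AAV.miS1 against vehicle), 0 to 2593 (StufferOnly against empty capsid), 0 to 6983 (miSCA7Stuffer against empty capsid), 0 to 343 (miSCA7Stuffer against StufferOnly), 0 to 1852 (intmiS1 against empty capsid), 132 to 3833 (intmiS1 against StufferOnly) and 0 to 872 (AAV.miS1 effect minus intmiS1 effect). Projection neuron genes called ran from 0 to 0 in StufferOnly, 0 to 6 in miSCA7Stuffer against empty capsid, 0 to 4 against StufferOnly, and 0 to 2 in intmiS1 against StufferOnly. The 6983 and 343 calls, and the 6 (SLC17A6, NEFH, NEFM, NEFL, SNCG and MEIS2) and 4 (SLC17A6, NEFH, NEFM and NEFL) among these genes, came without miSCA7Stuffer replicate 1. The 1852 came without intmiS1 replicate 3, and the 2300 without AAV.miS1 replicate 5.

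Fold changes whose sign turned in those runs ranged, for miSCA7Stuffer against empty capsid, from -0.95 to 0.40 (TBR1), and against StufferOnly from -1.90 to 0.40 (SNCG), -0.48 to 0.17 (MEIS2) and -2.49 to 0.18 (LHX9). For intmiS1 against empty capsid they ranged from -0.26 to 0.13 (NEFH), -0.29 to 0.11 (NEFM) and -0.24 to 0.33 (SNCG), and for LHX9 against StufferOnly from 0.00 to 1.54. For the AAV.miS1 effect minus the StufferOnly effect they ranged from -0.13 to 0.73 (SLC17A6), -0.43 to 0.68 (NEFH), -0.12 to 0.90 (NEFM), -0.19 to 0.76 (NEFL), -0.67 to 0.55 (SNCG) and -0.52 to 0.10 (MEIS2). Differences in log2 ratio ranged from -0.06 to 0.13 (NEFH to NEFL, AAV.miS1) and -0.15 to 0.47 (MEIS2 to MEIS1, StufferOnly).

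Other than miSCA7Stuffer with StufferOnly, same-numbered libraries of the groups compared did not all correlate above 0.1 (intmiS1 with StufferOnly 0.08, 0.04 and -0.01; StufferOnly with empty capsid 0.04, 0.05 and -0.06), so their numbers are only names. The replicate block gave 3299 calls in StufferOnly against empty capsid and 3065 in intmiS1 against StufferOnly, and the only call among the projection neuron genes that it changed was MEIS2, which passed in intmiS1 against StufferOnly. The labels number Study 1 libraries across both groups, with no shared number, so no block was fitted there. Depth limits LHX9 and TBR1 in both studies and every gene in vehicle replicate 2.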
